A study of Mus musculus with 6 samples.

Results

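The casein kinase 1 (CK1) family and the FAM83 proteins that anchor it were followed in mouse embryo fibroblasts through 10 genes: the kinases Csnk1a1, Csnk1d, Csnk1e, Csnk1g1, Csnk1g2 and Csnk1g3, and the anchors Fam83d, Fam83f, Fam83g and Fam83h. They were matched by symbol among the 49315 genes in the count files, and each symbol matched 1 gene. Poly(A)-selected RNA was counted in 6 C57BL/6 lines at passage 4, grown in medium with serum and given no treatment. All 6 lines lacked p53 (p53-/-). SG1, SG2 and SG3 carried on both chromosomes an edited MDMX with the substitutions W201S and W202G (MDMX-SG), described as breaking the contact with CK1-alpha, and WT3, WT9 and WT11 had wild-type MDMX. Each line was derived from 1 embryo, so a replicate is an embryo. Total counts ran from 49317925 to 65457242 per line.

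CK1 enzymes are serine and threonine kinases that are active without an activating signal, so their output is set largely by where in the cell they are held and what they are bound to. CK1-alpha primes beta-catenin for destruction, CK1-delta and CK1-epsilon phosphorylate the PER proteins of the circadian clock and act on Dishevelled, and the gamma isoforms sit at the plasma membrane through a lipid tail and phosphorylate the Wnt co-receptor LRP6. FAM83 proteins share a domain that grips CK1 and carry it to a place: FAM83D to the mitotic spindle, FAM83H to keratin filaments, and FAM83F and FAM83G, which bind CK1-alpha, to membrane or cytoplasmic pools linked to Wnt signalling. The comparison asks whether the transcripts of the kinase that MDMX-SG no longer binds, of its relatives or of its other anchors differ between genotypes. These are transcript counts, and neither kinase protein nor kinase activity was measured.

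The isoforms are related in sequence, so it was first examined whether reads can tell them apart. In the GENCODE M21 transcripts, CK1-delta and CK1-epsilon are the closest pair, with 77.7% identical bases over 1224 aligned coding bases, against 66.6% to 68.6% between CK1-alpha and either of them and 72.1% to 74.4% among the gamma isoforms. The stretch below is where the coding sequences of that closest pair hold their longest exact match. Both windows span coding bases 838 to 908, counted from the start codon, and capitals mark the shared run of 23 bases.
Csnk1d: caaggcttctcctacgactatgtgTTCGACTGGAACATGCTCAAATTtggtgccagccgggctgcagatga
Csnk1e: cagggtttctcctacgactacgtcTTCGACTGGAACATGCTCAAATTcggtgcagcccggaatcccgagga
The lower-case flanks already differ at several bases on either side of the run. The longest run between any CK1 pair was 31 bases, between Csnk1e and Csnk1g2. No 50-base word of any of the 10 genes occurred in a transcript of another of them, on either strand. Words shared with other genes made up 9.18% of those of Csnk1g3, all in the processed pseudogene Gm14584, which itself had 39 to 69 counts per line. They made up 21.8% of those of Fam83f, all in an antisense RNA, 3.92% of those of Fam83g, all in the antisense neighbour Slc5a10, and 0% for Csnk1a1, Csnk1g2, Fam83d and Fam83h. Slc5a10 had between 0 and 2 counts per line. Antisense neighbours also overlap small parts of Csnk1d and Csnk1e exons, and no source used here gives the strand setting of the counting. Reads of such overlaps cannot be told apart.

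None of the 10 genes passed the test between genotypes. With edgeR's quasi-likelihood test and Benjamini-Hochberg adjustment over 16068 genes, 0 of 10 had an adjusted p under 0.05, where 1.90% of all tested genes did. At an unadjusted p under 0.05 there were 3 (Fam83d, Fam83g and Fam83h), where 15.5% of all tested genes were. DESeq2 gave 0 of 10 after adjustment, where 5.9% of all tested genes passed, and 3 before. The unadjusted count lay between 2 and 5 over all alternatives, for which no unadjusted share over all genes was computed. The 6 kinases and the 4 anchors differed in spread: log2 fold changes (SG minus WT) of the kinases lay between -0.05 and 0.12, and those of the anchors between -0.47 and 0.30, where the median absolute value over all tested genes was 0.09. The median over the kinases was 0.01 and over the anchors -0.31, beside 0.00 over all genes. The anchors lie at lower levels, where values spread more between lines.

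**Figure D1:**
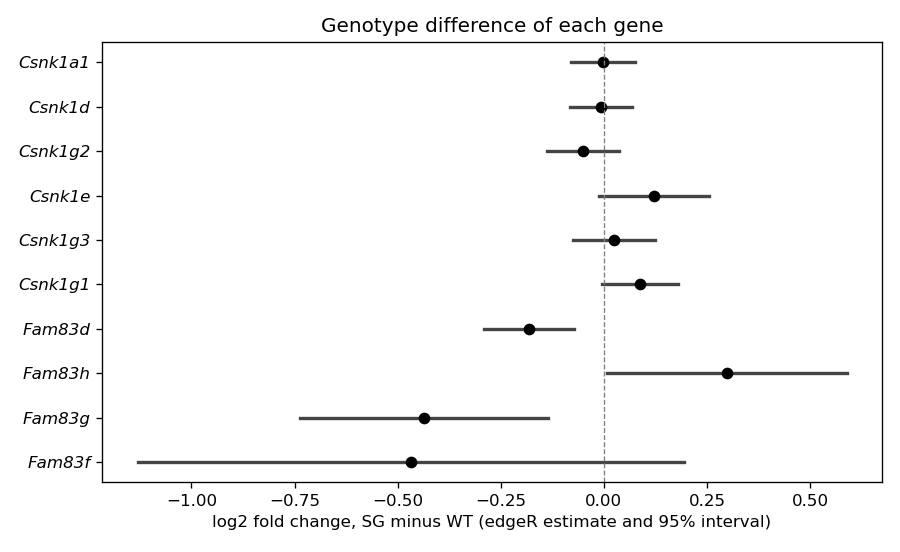
Log2 fold change of SG against WT lines for each gene (x axis), with the edgeR estimate as a point and its 95% interval as a bar. The intervals of all 6 kinases include 0, those of Fam83d, Fam83g and Fam83h do not, and none of the 10 genes passed after adjustment over all genes.

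Csnk1a1 (ENSMUSG00000024576, chromosome 18, 61555274 to 61590061), which encodes the kinase at the centre of the study, was at 396, 412 and 409 CPM in the SG lines and at 403, 401 and 415 CPM in the WT lines. CPM is the count scaled to a common TMM-adjusted library size, and values per line run in the order SG1, SG2, SG3 and WT3, WT9, WT11 throughout. The lowest value was in an SG line and the highest in a WT line, and the genotypes overlapped. The log2 fold change was -0.0026 with a standard error (SE) of 0.03 and an edgeR adjusted p of 0.982, and its 95% interval ran from -5.37% to 5.30% of the WT level. The data therefore bound a genotype difference in this transcript to a few percent either way. Csnk1a1 was also among the steadiest transcripts over the lines: the standard deviation (SD) of its log2 CPM over all 6 was 0.02, smaller than that of 95.8% of the 384 tested genes within 0.5 log2 CPM of its level. With so narrow a range its closest companions in pattern have little to follow: Parpbp, Jpt2 and Eef1akmt2 had the highest Pearson r of log2 CPM with it over the 6 lines (0.99, 0.98 and 0.98), among 125 genes above 0.9.

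**Figure D2:**
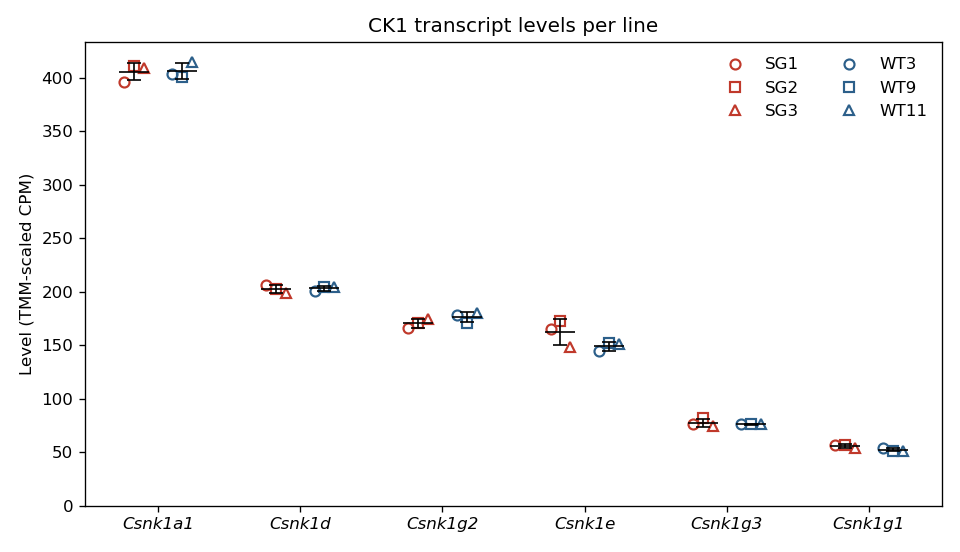
Levels of the CK1 transcripts in TMM-scaled CPM (y axis, from 0) for each gene (x axis), with 1 symbol per line, SG red and WT blue, and the mean ± SD of 3 lines in black. Csnk1a1 sits near 406 CPM in both genotypes, and for each kinase the lines of the genotypes overlap.

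Csnk1d (ENSMUSG00000025162, chromosome 11, 120961749 to 120991330), the kinase gene that shares its clock role with Csnk1e, was as steady as Csnk1a1. It lay between 199 and 206 CPM in SG lines and between 201 and 205 CPM in WT lines, with a log2 fold change of -0.01 and a 95% interval from -5.58% to 4.82%. Of 870 tested genes of like level, 98.5% had a larger SD over the lines. Its partner Csnk1e (ENSMUSG00000022433, chromosome 15, 79417856 to 79443919) varied more. It was at 166, 172 and 148 CPM in the SG lines and at 144, 152 and 151 CPM in the WT lines. SG1 and SG2 stood above every WT line while SG3 lay among them, and only 15.5% of 1180 genes of like level had a larger SD. The log2 fold change of 0.12 (SE 0.06, edgeR adjusted p = 0.377) has an interval from -0.86% to 19.3%, a wider one than for Csnk1a1 or Csnk1d. It was 0.08 without SG2 and 0.18 without SG3 (edgeR adjusted p = 0.675 and 0.105).

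Set against each other within a line, the TPM ratio of Csnk1d to Csnk1e was 1.59, 1.502 and 1.71 in the SG lines and 1.78, 1.72 and 1.73 in the WT lines. TPM is the count divided by the summed exon length in the files and scaled to the same total in each line. Every SG line lay below every WT line, SG3 and WT9 being neighbours. The mean log2 ratio was 0.67 in SG and 0.80 in WT, a difference of -0.13 with p = 0.1 in a 2-sided exact permutation test, which is the smallest p that 3 lines against 3 can give, so this design cannot pass 0.05. The difference was -0.08 without SG2 and -0.17 without SG3.

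Among the membrane-bound gamma isoforms, Csnk1g1 (ENSMUSG00000032384, chromosome 9, 65908924 to 66045015) was at 56.2, 56.8 and 53.4 CPM in the SG lines and at 53.9, 51.3 and 51.4 CPM in the WT lines. The genotypes overlapped through SG3 and WT3, and the log2 fold change was 0.09 (SE 0.04, edgeR adjusted p = 0.354, interval from -0.36% to 13.3%). Csnk1g2 (ENSMUSG00000003345, chromosome 10, 80622780 to 80640771) lay between 166 and 174 CPM in SG and between 171 and 180.0 CPM in WT lines (log2 fold change -0.05, interval from -9.04% to 2.55%). Csnk1g3 (ENSMUSG00000073563, chromosome 18, 53862113 to 53955684) was at 74.4 to 81.7 CPM in SG and 75.9 to 76.3 CPM in WT lines (log2 fold change 0.02, interval from -5.08% to 8.93%), SG2 being the highest. Each of the 3 intervals includes 0.

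Which CK1 transcript is the most abundant depends on the length by which counts are divided, while the share of each differs little between lines. A long transcript yields more reads per molecule. The summed exon length covers every exon of the gene in the files: 10502 bases for Csnk1a1 and 15621 for Csnk1g1, against 2511 for Csnk1g2. The M21 transcripts of Csnk1g2 hold more sequence, with 5099 distinct words of 50 bases, and its bounds in the files differ from M21. Its place by summed exon length therefore rests on the gene model of the files. The coding lengths are far closer, from 1122 bases for Csnk1a1 to 1383 for Csnk1g1. By TPM over summed exon length the order was Csnk1g2 (229.8 ± 6.10 TPM, SD, n = 6 lines), Csnk1d (134 ± 2.44), Csnk1a1 (129 ± 1.12), Csnk1e (80.8 ± 5.72), Csnk1g3 (58.1 ± 1.87) and Csnk1g1 (11.5 ± 0.556). Each stood above the next in 6 of 6 lines, also the close pair Csnk1d and Csnk1a1 (ratio 1.04). For each of these 5 neighbour pairs the exact sign-flip permutation test over lines gave p = 0.031, the smallest that 6 lines allow, and the same after Benjamini-Hochberg adjustment over the pairs. On each scale the pairs and their direction were taken from the mean levels of these same lines. The test therefore describes how steadily the lines keep that order. It covers the spread between lines and not the choice of length.

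Csnk1a1 made up between 19.7% and 20.3% of the CK1 TPM in the 6 lines on that scale, and moved to the first place on the other scales. Its mean share was 41.6% by TPM over the mean length of basic protein-coding transcripts, 41.3% by TPM over coding length and 38.0% by CPM with no length correction. Csnk1g2 took 35.7% on the first scale and 19.97%, 14.9% and 16.2% on the others. Csnk1g1 was the lowest on all 4 scales, with 1.68% to 1.88% of the CK1 TPM over summed exon length, and Csnk1g3 the second lowest. By coding length Csnk1g2 and Csnk1e were close (ratio 1.05, higher in 4 of 6 lines, exact permutation p = 0.25 and adjusted p = 0.25). By CPM their ranges overlapped too (ratio 1.12, 5 of 6 lines, exact permutation p = 0.094). The smallest p that this test can give with 6 lines is 0.031. Because the lines disagreed, the order of this pair stays unsettled on these scales.

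On each scale the genotypes overlapped in the share of Csnk1a1. Over summed exon length it was 19.7%, 19.9% and 20.3% in the SG lines and 19.9%, 19.95% and 20.2% in the WT lines. The summed CK1 TPM was 647, 650.1 and 635 in the SG and 648, 637 and 643 in the WT lines, with the highest and the lowest value both in SG lines.

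The 4 anchors were far lower than the kinases and varied more between lines, but spread is larger at low levels. The median SD of log2 CPM among genes of like level was 0.05 for Csnk1a1, 0.07 for Fam83d and 0.32 for Fam83f. Of like-level genes, 22.2% had a larger SD than Fam83d, 46.0% than Fam83f, 19.5% than Fam83g and 27.0% than Fam83h. For the kinases that share was 15.5% (Csnk1e), 48.9% (Csnk1g1), 65.7% (Csnk1g3), 67.4% (Csnk1g2), 95.8% (Csnk1a1) and 98.5% (Csnk1d). At matched level no anchor stood out more than Csnk1e. Fam83d, Fam83g and Fam83h stood out more than each of the other kinases, and Fam83f was close to Csnk1g1. The summed TPM of the anchors was 33.1, 32.0 and 32.1 in the SG lines and 36.8, 34.6 and 35.8 in the WT lines. CK1 transcripts exceeded this sum by a factor of 19.5 to 20.3 in SG and 17.6 to 18.4 in WT lines. By coding length that factor was 41.1 to 43.0 in SG and 36.3 to 37.8 in WT lines, so its size depends on the length used. The SG lines lay above the WT lines on all 4 scales, which divide the same counts by fixed lengths and so give no separate support. The factor was not tested between genotypes, and 21.2% of all tested genes had groups without overlap. Fam83d carried most of the anchor TPM over summed exon length, between 74.8% and 80.5%. Fam83g held 6.61% to 10.1% and Fam83h 9.69% to 16.5%. Their order also depends on the length: Fam83h was above Fam83g in 6 of 6 lines on that scale, in 1 by coding length, and in the 3 SG lines alone by CPM or basic transcript length. Fam83f held 0.974% to 2.02%.

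Fam83d (ENSMUSG00000027654, chromosome 2, 158768093 to 158786637), whose protein brings CK1-alpha to the spindle in mitosis, was at 29.9, 28.9 and 29.2 CPM in the SG lines and at 32.7, 32.0 and 35.1 CPM in the WT lines. The genotypes did not overlap, with WT11 the highest. The log2 fold change was -0.18 (SE 0.05, unadjusted p = 0.00508, edgeR adjusted p = 0.106) and the 95% interval ran from -18.2% to -4.92%, but the gene missed the threshold over all genes. Groups without overlap are common in these data: they occurred in 21.2% of all tested genes (10.0% of all tested genes higher and 11.2% lower in SG) and in 2 of the 10 genes here (Fam83d and Fam83g, both lower).

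FAM83D is made mainly in dividing cells, and most of the mitotic genes lay on the same side of 0. Of 14 spindle partners and mitotic genes, 0 passed the edgeR test in either direction, and Cenpf alone had an unadjusted p under 0.05. The log2 fold changes were below 0 in 13 and above in 1, with a median of -0.06. That is small: over all tested genes the median was 0.00 and the median absolute value 0.09. The exact share of all tested genes below 0 was not computed. Their median of 0.0017 means that values below 0 were no commoner than values above. The summed CPM of the 14 was 2491 to 2552 in SG and 2553 to 2718 in WT lines. Hmmr, which encodes the spindle protein that positions FAM83D, was at 106, 106 and 107 CPM in the SG lines and at 112, 109 and 119 CPM in the WT lines (log2 fold change -0.09, edgeR adjusted p = 0.346). WT11 was the highest line in both Hmmr and the mitotic sum, and without it the Hmmr value was -0.05. The kinetochore gene Cenpf had a log2 fold change of -0.08 (edgeR adjusted p = 0.312). Pearson r of log2 CPM with Fam83d over the 6 lines ran from -0.18 (Kif20a) to 0.94 (Hmmr) among the 14 genes. It was 0.91 for Aurka and 0.85 for Cenpf, but 0.59 for Plk1 and 0.33 for Cdc20. The libraries also differ by genotype, which makes this a description. The part of the mitotic genes in the Fam83d difference was not tested. The 3 genes closest to it in pattern under the rule were Ap2s1, Angptl2 and Tmem246 (r = 0.996, 0.995 and 0.994), among 447 above 0.9.

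Fam83g (ENSMUSG00000042377, chromosome 11, 61684091 to 61709951), the anchor also known as PAWS1, was at 5.13, 5.67 and 4.26 CPM in the SG lines and at 7.30, 7.001 and 6.10 CPM in the WT lines, from 249 to 458 counts per line. The genotypes did not overlap, SG2 and WT11 being the nearest. The log2 fold change of -0.44 (SE 0.13, unadjusted p = 0.0103, edgeR adjusted p = 0.149) has a 95% interval from -39.96% to -8.997%. Fam83h (ENSMUSG00000046761, chromosome 15, 76001093 to 76014336), the keratin-bound anchor whose human gene is mutated in a defect of tooth enamel, went the other way. It was at 6.36, 6.93 and 7.40 CPM in the SG lines and at 6.54, 5.41 and 4.90 CPM in the WT lines, WT3 lying above SG1. Its log2 fold change was 0.30 (SE 0.13, unadjusted p = 0.0455, edgeR adjusted p = 0.308, interval from 0.53% to 50.4%).

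Fam83f (ENSMUSG00000022408, chromosome 15, 80671847 to 80700420) was close to the limit of detection, with 27, 18 and 23 counts in the SG lines and 33, 33 and 27 counts in the WT lines. SG1 and WT11 had the same count, and at this depth the interval of its log2 fold change (-0.47, SE 0.29) ran from -54.3% to 14.4%. All 10 genes passed the filter on low counts.

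**Figure D3:**
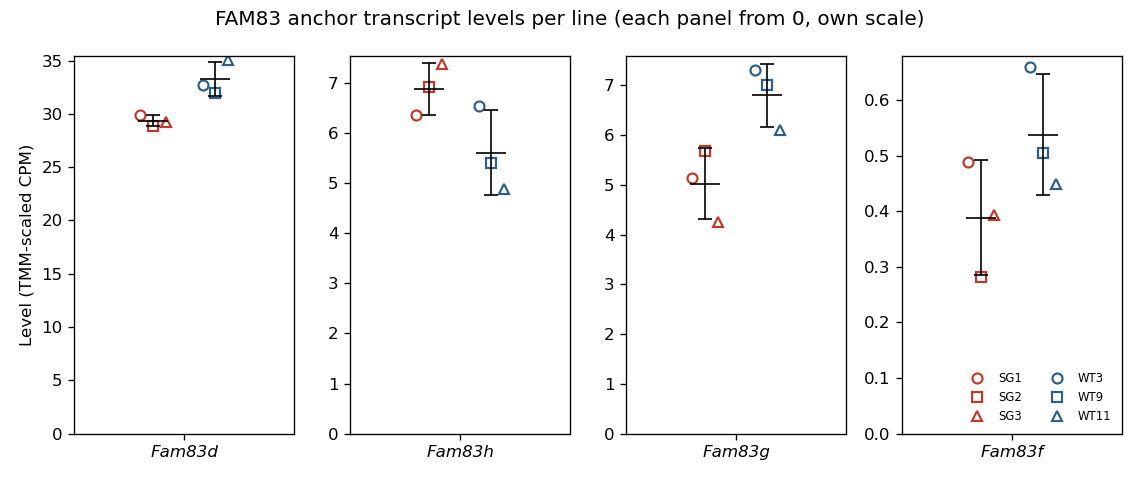
Levels of the 4 anchors in TMM-scaled CPM (y axis, from 0 in each panel, own scale), with 1 symbol per line, SG red and WT blue, and the mean ± SD of 3 lines in black. The SG lines lie below the WT lines for Fam83d and Fam83g, the genotypes overlap for Fam83h and Fam83f, and none of the 4 passed after adjustment over all genes.

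The labelled cell type was checked because FAM83 anchors are known from epithelia. Fibroblast markers were abundant in every line, with a summed level of 14501 to 17412 CPM over 10 genes, and 2 of the 10, Thy1 and S100a4, fell in SG lines (log2 fold changes -0.72 and -0.99, edgeR adjusted p = 0.00802 and 0.0362), where 1.10% of all tested genes did. Thy1 lost its call without SG2, and S100a4 without SG1, SG2, WT3 or WT11 or with a robust prior. The 9 keratin and epithelial markers summed to 72.4 to 118 CPM in SG and 85.9 to 119 CPM in WT lines, mostly from Krt19, Krt7, Krt18 and Cldn4. The defining marker Cdh1 was at no more than 0.141 CPM in any line, and Krt5 was at 2.94 CPM in SG1, 1.68 CPM in SG2 and 0 in the other 4. Of this list 7 were tested, 0 passed the edgeR test and 3 had an unadjusted p under 0.05 (15.5% over all tested genes), with log2 fold changes of 2.33 for Krt14, 0.64 for Krt18 and -0.42 for Krt19. The part of such cells in the Fam83h and Fam83g values was not tested. Macrophage markers summed to 26.3 to 60.2 CPM in SG and 11.6 to 32.2 CPM in WT lines (0 of 7 past the edgeR threshold and 0 at an unadjusted p under 0.05). Endothelial and muscle markers summed to 75.7 to 91.9 CPM in SG and 47.1 to 64.7 CPM in WT lines, higher in every SG line. Of 5 tested, 0 passed and 2 had an unadjusted p under 0.05, beside 15.5% of all tested genes. These were Des (log2 fold change 0.86) and Kdr (0.39), which made up most of the sum. Of the other tested markers, Cdh5 (0.42) and Emcn (0.48) lay above 0 and Tek (-0.31) below. Pecam1 was at no more than 0.172 CPM in any line, and Cdh5 at no more than 0.376 CPM. The muscle markers Myf5, Myog and Myod1 were at no more than 0.183, 0.0514 and 0.020 CPM. The part of macrophage, endothelial or muscle cells in the results was not tested.

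Other kinases named for casein or built like CK1 gave no call either. Of 5 CK1-related kinases (the tau tubulin and vaccinia-related kinases), 0 passed the edgeR test. Ttbk2, which acts in cilium formation, had a log2 fold change of 0.10 (edgeR adjusted p = 0.529) and Vrk2 one of -0.09 (0.563). The 3 subunits of CK2, an unrelated kinase in spite of its name, had log2 fold changes between -0.05 and -0.01, with Csnk2b and Csnk2a1 at edgeR adjusted p of 0.607 and 0.889. In these 2 lists 0 genes had an unadjusted p under 0.05. Of the other FAM83 genes, Fam83a and Fam83b had no more than 4 counts in any line and were not tested, while Fam83c and Fam83e, at 14 to 42 counts, had edgeR adjusted p of 0.947 and 0.924 at log2 fold changes of 0.05 and 0.10.

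Transcripts of CK1 partners gave no call. Among 8 genes for binding partners of CK1 isoforms and for the ubiquitin ligase that drugs can turn against CK1-alpha, 0 passed the edgeR test and 0 had an unadjusted p under 0.05. Crbn, the substrate receptor of that ligase, was at 25.8, 26.5 and 24.5 CPM in the SG lines and at 27.3, 27.0 and 28.6 CPM in the WT lines (log2 fold change -0.11, edgeR adjusted p = 0.335). Akap9, which tethers CK1-delta at the centrosome, had a log2 fold change of 0.11 (edgeR adjusted p = 0.352).

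In the beta-catenin pathway, where CK1 acts on several steps, 0 of 15 destruction complex and transduction genes passed and 4 had an unadjusted p under 0.05, beside 15.5% of all tested genes. Axin2, both scaffold and target of the pathway, came nearest, at 2.17, 1.99 and 2.21 CPM in the SG lines and at 4.30, 2.92 and 4.16 CPM in the WT lines (log2 fold change -0.83, edgeR adjusted p = 0.0555). The genotypes did not overlap, WT9 being the lowest of its group, and the gene passed in 5 of 15 alternatives. Axin2 was not alone in this: of the 15 genes, 6 lay higher and 3 lower in SG without overlap. Over all tested genes 10.0% lay higher and 11.2% lower without overlap. Apc2, a relative of the tumour suppressor Apc, had a log2 fold change of 0.69 at a level of 1.498 to 3.17 CPM (edgeR adjusted p = 0.139).

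Calls among the pathway lists lay in the clock list. Of 16 clock genes, 1 rose and 2 fell in SG lines, beside 0.809% higher and 1.10% lower over all tested genes. Bhlhe40, which encodes a repressor of the clock, was at 69.3, 64.5 and 64.0 CPM in the SG lines and at 79.2, 82.2 and 80.5 CPM in the WT lines (log2 fold change -0.29, SE 0.04, edgeR adjusted p = 0.0229). Its close relative Bhlhe41 was at 23.97, 28.0 and 23.7 CPM in the SG lines and at 20.03, 19.3 and 18.3 CPM in the WT lines (log2 fold change 0.40, SE 0.08, edgeR adjusted p = 0.0487). So the paired repressors lay on opposite sides, each without overlap. Npas2, which can stand in for CLOCK, fell at a low level of 0.479 to 0.562 CPM in SG against 1.07 to 1.45 CPM in WT lines (log2 fold change -1.26, SE 0.20, edgeR adjusted p = 0.0295). The Per and Cry genes did not pass: Per1, Per2 and Per3 had log2 fold changes of 0.17, 0.12 and 0.11, and Cry1 and Cry2 of -0.01 and 0.08. Among the clock genes without a call, Arntl had the smallest edgeR p (unadjusted 0.019, adjusted 0.203, log2 fold change -0.14). Groups without overlap occurred in 1 of the 16 genes higher and 3 lower in SG, beside 10.0% and 11.2% of all tested genes. The count of 3 depends on single lines, being 0 without SG2, WT3 or WT11, 1 (Bhlhe40) without SG3 and 2 (Bhlhe40 and Npas2) without WT9. Calls over all genes fell as well, from 306 to 3, 24 and 29 without SG2, WT3 and WT11. The log2 fold changes there were -0.27, -0.30 and -0.29 for Bhlhe40, -1.24, -1.29 and -1.12 for Npas2, and 0.31, 0.43 and 0.36 for Bhlhe41. Bhlhe41 lost its call in 9 of 15 alternatives, which gave adjusted p between 0.00061 and 0.169.

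**Figure D4:**
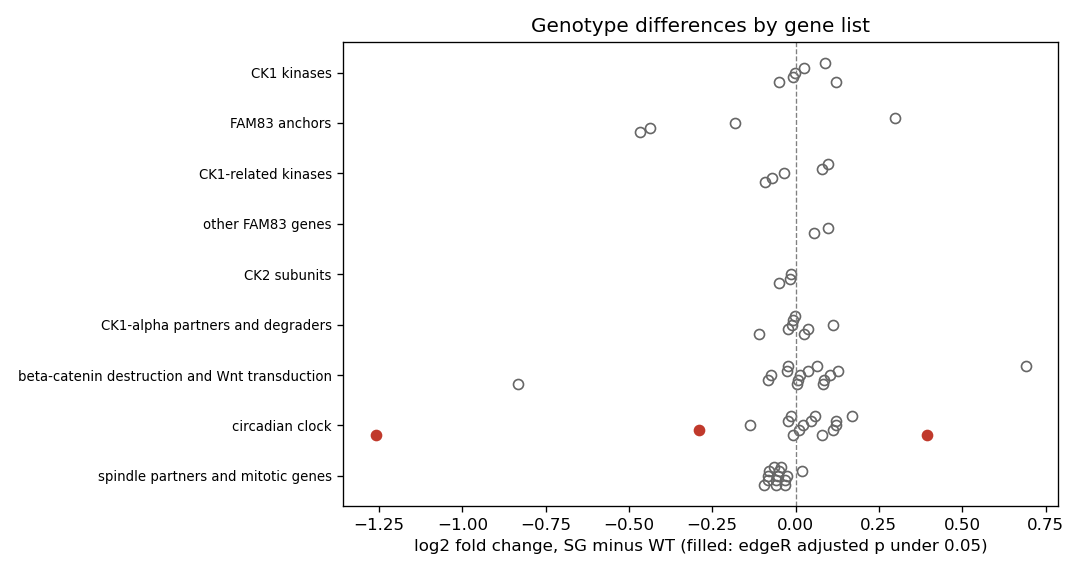
Log2 fold changes of SG against WT lines (x axis) for each tested gene of the CK1 and FAM83 lists and of 7 related lists (y axis, points spread vertically for legibility). Filled red points have an edgeR adjusted p under 0.05: Npas2 (-1.26), Bhlhe40 (-0.29) and Bhlhe41 (0.40), all in the clock list.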

How the data were processed

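The deposited files hold unnormalised counts of reads per gene with summed exon lengths. Per the submitters' processing notes, the authors used Trimmomatic 0.36, STAR 2.5.2b, GRCm38 and featureCounts from Subread 1.5.2, with DESeq2 also named. Annotation release, multimapping, strand setting and batch: not given in the sources used here. Symbols came from GENCODE M21 (GRCm38), and 48970 of 49315 identifiers matched. Coordinates and summed exon lengths are those of the files, while coding lengths, basic transcript lengths and shared words come from M21. The gene bounds in the files differ from M21 for Csnk1e, Csnk1g2, Csnk1g3 and Fam83f. No protein sequences were used here.

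Groups came from the sample titles. The genotype test was that of edgeR 4.0.16 under R 4.3.3 (filterByExpr, TMM, glmQLFit and glmQLFTest, 2-sided), without covariates. Benjamini-Hochberg adjustment covered 16068 genes, and the threshold was 0.05. SE is the log2 fold change over the square root of F, and intervals are 95%, for single genes without adjustment. Permutation tests were exact. Correlations used log2 CPM with a prior count of 2. Fits were checked on simulated counts.

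Alternatives were DESeq2 1.42.0, a robust prior, other scalings and filters, an Xist covariate, lines left out, and other lengths. All members are named. Other lists give up to 3 genes past the threshold, or the 2 of smallest p. Per1 to Per3, Cry1, Cry2, Arntl, Aurka, Kif20a, Plk1, Cdc20 and the marker genes are named beyond that rule, after their values were seen. Members and lists were chosen with earlier results of these data known.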

Additional observations from a re-analysis of the deposited data

How the results depend on the processing

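Over 15 alternatives the count of CK1 and FAM83 genes past the threshold was 0, also in 149 refits of single members. Refits without SG2, WT3 or WT11 called only 3, 24 and 29 genes in all, so a count of 0 there says little. The sign changed in 8 of the 149, in 3 genes that lie at 0. For Csnk1a1 it became positive with upper quartile scaling (0.0076), with a minimum of 1 CPM in 3 lines (0.0023), in lines without Xist (0.0037, SG1 and WT9 left out together), and between -0.013 and 0.014 with 1 line left out. Csnk1d turned to 0.0026 with upper quartile scaling and ran from -0.020 to 0.0061 with 1 line left out (positive without SG3), and Csnk1g3 from -0.016 (without SG2) to 0.052. Among other genes without a call, Fam83e ran from -0.12 (without WT9) to 0.37, being -0.034 without SG1 and -0.25 without both, Fam83c from -0.17 (without SG2) to 0.20, being -0.0021 without WT9, and Csnk2a1 from -0.032 to 0.0048 (without WT11). These genes lay near 0 or had few counts.

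The genotype difference in the share of Csnk1a1 (SG minus WT, percentage points of TPM) was -0.02 and lay between -0.20 and 0.13 with 1 line left out, at 0.096 without SG1 and WT9, and at -0.43 by coding length, -0.39 by basic transcript length and -0.41 by CPM. That of summed CK1 TPM was 1.44 and lay between -1.55 and 6.05 with 1 line left out, at -3.12 without SG1 and WT9, and at 13.7 by coding length, 14.0 by basic transcript length and 9.75 by CPM, scales with larger sums. The mean share of Csnk1a1 was 20.005%, with 41.3% by coding length, 41.6% by basic transcript length and 38.0% by CPM, and its rank among 6 isoforms moved from 3 to 1 in each of these 3, by their construction. Related genes past the threshold numbered 3 (Bhlhe40, Bhlhe41 and Npas2), and 0 to 3 with 1 line left out. They numbered 4 with DESeq2 or no count filter, Axin2 being added. With library totals only or a minimum of 1 CPM in 3 lines they numbered 2 (Bhlhe40 and Npas2). Without WT9, in lines without Xist, or with the Xist covariate, the 3 were Axin2, Bhlhe40 and Npas2. The length alternative from a protein table was not run, and coding and basic transcript lengths were chosen in its place after seeing the data. No paired analysis was possible because the genotypes share only line number 3, and the numbers name separate embryos. Depth limits Fam83f, Fam83c and Fam83e, with at most 42 counts in a line.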
